A study of Mus musculus with 7 samples.

Results

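The genes described here are the integrins, cadherins and protocadherins of mouse satellite cells, with the neural cell adhesion molecule Ncam1. They were chosen by symbol from the deposited array table: integrin alpha and beta genes, numbered cadherins other than Cdh5, and protocadherins, each read from its brightest probe set among those annotated to a single gene. This gave 61 of the 13287 genes in the table, from 62 probe sets, since Pcdh9 had 2. For Itga3, Cd9 and Cd81 the table held no probe set annotated to a single gene, and they were not analysed here. Of the 61 genes, 35 had a mean log2 level of at least 5.12 over the 7 arrays and were tested, among 9944 genes tested in all. The symbol rule also took Itgb1bp1, Itgb3bp and Itgbl1, which are not integrin chains.

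Satellite cells, the stem cells of muscle, lie between the myofibre and the laminin-rich basement membrane around it. Integrins are membrane receptors made of an alpha and a beta chain. They bind matrix proteins such as laminin, fibronectin, vitronectin and collagen outside the cell, and link to actin inside it through talin and kindlin. Cadherins hold neighbouring cells together in the presence of calcium, and quiescent satellite cells are known to use them at the contact with the myofibre. Protocadherins are the largest branch of the cadherin superfamily, part of it encoded in gene clusters of related members.

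RNA came from satellite cells of Tg:Pax7-nGFP mice, in which the Pax7 gene's regulatory sequence drives a nuclear green fluorescent protein, sorted by that fluorescence straight into lysis buffer. There were 2 arrays of old cells, 2 of cells isolated 2 days after death (D2PM) and 3 of cells isolated 4 days after death (D4PM). The array labels and the methods put the old mice at 24 to 26 months, whereas the title names young adults and the design text gives the same figures in weeks. The labels give no age for the post-mortem mice and the study gives theirs in weeks, so age and death cannot be told apart in any comparison with old cells. Whether replicate arrays are separate mice is not stated, and p-values therefore measure only the spread between these arrays. All values are log2 levels after robust multi-array averaging (RMA). Such levels were compared between arrays and not between genes, and in sorted bulk cells fewer cells of a type and less RNA per cell cannot be told apart.

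The sort was checked against markers. All 12 satellite cell markers listed, among them Pax7 and Myf5, passed the filter on level, and their mean lay between 10.19 and 10.59 on every array. They too moved in post-mortem against old cells, with 5 of 12 called higher, 1 (Vcam1) called lower and a median difference of 0.26. Markers of other cells were not absent. The mean of 16 endothelial markers was 6.43 and 5.82 on the old arrays, 6.85 and 6.86 at D2PM, and between 6.81 and 7.38 at D4PM. The mean of 10 myofibre markers was between 6.97 and 7.33 in old cells and between 8.04 and 8.37 in post-mortem cells. In post-mortem against old cells limma called 11 of 16 endothelial, 8 of 9 myofibre, 5 of 7 tendon cell and 3 of 5 Schwann cell markers higher and none of these lower. Of 8 fibroadipogenic progenitor and 7 pericyte and smooth muscle markers tested, 0 were called in that comparison. The fibroadipogenic mean lay between 7.03 and 7.63 over all arrays, and 1 of these markers was called higher at D2PM. The pericyte and smooth muscle mean was 7.55 and 7.43 on the old arrays. It was 7.82 and 7.77 at D2PM and between 7.68 and 7.93 at D4PM, above both old arrays throughout. The median post-mortem difference of that list was 0.37. Of the 8 lymphocyte markers in the table, Ptprc among them, 0 reached the filter level. The 12 macrophage markers averaged between 4.89 and 5.48 on all arrays, with Cd68 at 7.29. Of the 6 tested, 1 (Cd14) was called lower, by 1.03 (limma adjusted p = 0.00345).

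**Figure D1:**
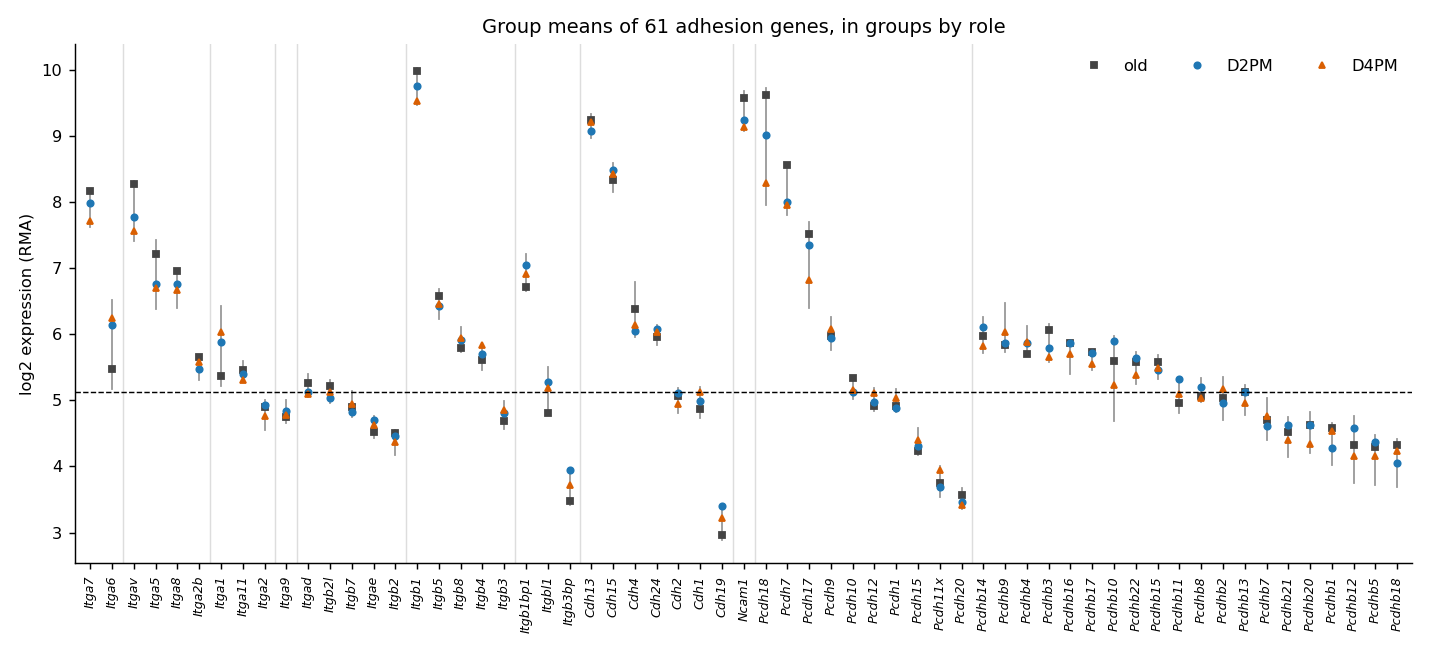
Levels of the 61 adhesion genes, in log2 units after RMA. Symbols are the group means of old (squares, n = 2), D2PM (circles, n = 2) and D4PM cells (triangles, n = 3), grey bars span all 7 arrays, the dashed line is the level of 5.12 needed for a test, and vertical lines part the genes by role. The symbols of most genes lie on top of each other. Pcdh18, Itga6, Itgav, Pcdh17, Itga1, Pcdhb10 and Pcdh7 are among the genes whose symbols stand apart.

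Post-mortem cells, taken as the mean of D2PM and D4PM, differed from old cells in 7 of the 35 adhesion genes tested (limma, Benjamini-Hochberg adjusted p under 0.05 over all 9944 genes). Itga6 and Itga1 were higher, and Itgav, Itgb1, Ncam1, Pcdh18 and Pcdh7 were lower. Over all genes tested 14.4% were called higher and 14.7% lower, so 2 and 5 of 35 are not more than the share of genes at large. Among the 35 tested, all 5 post-mortem arrays lay above both old arrays for 3 members and below both for 9, against 22.8% and 23.2% of all genes tested. The median difference was -0.11 over the members tested, -0.03 over all 61 and 0.00 over all genes tested. At an unadjusted p under 0.05 there were 10 members.

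Taken on its own, D2PM differed from old cells in 3 members, with Itga6 higher and Itgav and Pcdh7 lower, where 10.3% of all genes were called higher and 9.11% lower. With each array centred on its median the split was 0 higher and 2 lower. D4PM differed from old cells in 10 members, 2 higher and 8 lower, where 12.4% and 15.5% of all genes were called. Its 10 were the 7 above with Itga7, Pcdh17 and Pcdhb3, all 3 of them lower. D4PM and D2PM differed in 0 members by limma, where 0.161% of all genes were called higher and 0.0302% lower, and 3 members had an unadjusted p under 0.05. All comparisons with old cells share the same 2 old arrays. Where all 3 groups, or D4PM and D2PM, are said not to overlap, the share of all genes with that order was not counted.

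**Figure D2:**
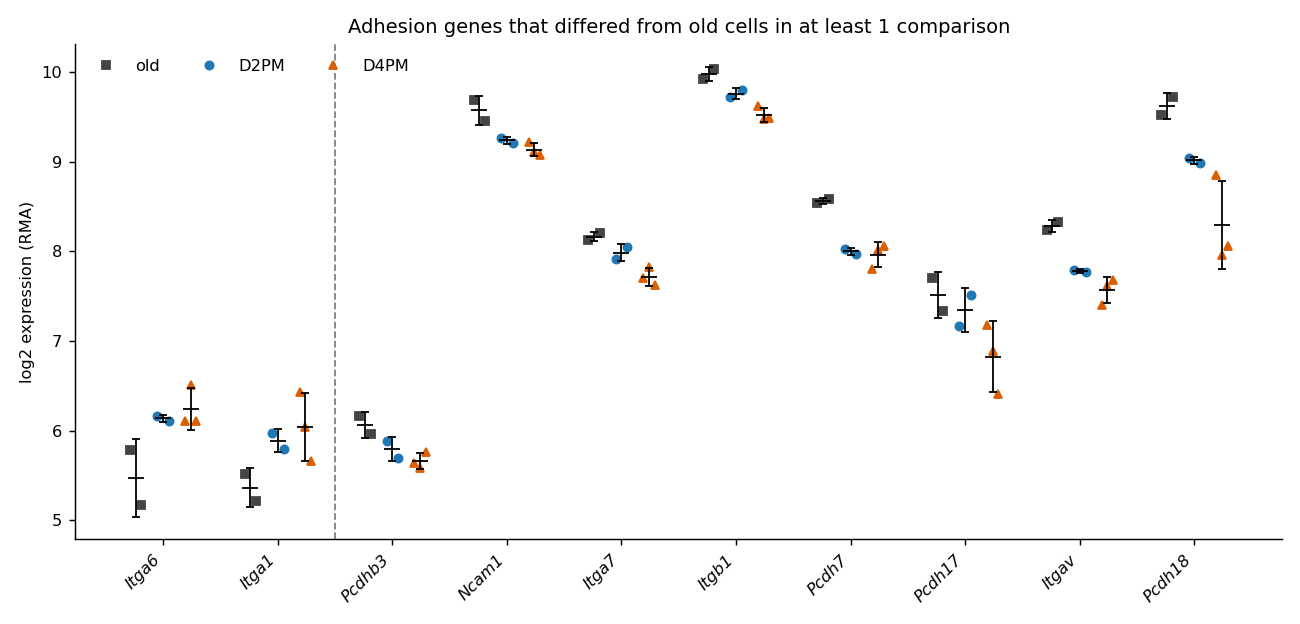
Log2 level (RMA) of the 10 adhesion genes called in at least 1 comparison with old cells, ordered by the D4PM difference. Points are arrays (old n = 2, D2PM n = 2, D4PM n = 3), horizontal marks are means and bars are ± 1 SD. Left of the dashed line are the 2 genes higher at D4PM than in old cells, and right of it the 8 that were lower. The old Pcdh18 arrays, at 9.52 and 9.72, lie above every post-mortem array.

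Among laminin-binding chains, Itga6 and Itga7 stood on opposite sides. Itga6 encodes a laminin receptor chain of many stem, epithelial and endothelial cells, and Itga7 the main laminin receptor chain of the muscle lineage. The Itga6 level was 5.78 and 5.17 on the old arrays, 6.17 and 6.11 at D2PM, and 6.11, 6.51 and 6.11 at D4PM. Every post-mortem array was above both old arrays, and the old arrays spread with an SD of 0.44. The post-mortem difference was 0.71 ± 0.17 (SE) on the log2 scale, or 1.64-fold (limma adjusted p = 0.0102). It was 0.66 ± 0.21 at D2PM (limma adjusted p = 0.0447) and 0.77 ± 0.19 at D4PM (limma adjusted p = 0.0114). D2PM replicate 2 and D4PM replicates 1 and 3 held exactly the same value for this gene. Without old replicate 2 the post-mortem difference was 0.40 and was not called (limma adjusted p = 0.205), and without D2PM replicate 1 it was 0.70 (limma adjusted p = 0.0566). The D2PM call was lost when any of 5 arrays was left out, with adjusted p between 0.0554 and 0.350, and the D4PM call without old replicate 2 (0.46, limma adjusted p = 0.176).

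Itga7 read 8.13 and 8.20 in old cells, 7.91 and 8.05 at D2PM, and 7.70, 7.83 and 7.63 at D4PM. Old arrays were the highest, D2PM arrays came next and D4PM arrays were the lowest, with no overlap between the groups. The D4PM difference from old cells was -0.44 ± 0.13 (limma adjusted p = 0.0215). The D2PM difference was -0.18 ± 0.14 (limma adjusted p = 0.389) and the post-mortem difference -0.31 ± 0.12 (limma adjusted p = 0.0627), neither past the threshold; without D4PM replicate 2 the latter was called at -0.34 (limma adjusted p = 0.0465). D4PM and D2PM arrays differed by -0.26, with a 95% interval from -0.54 to 0.01. The D4PM call was lost without old replicate 1, old replicate 2 or D4PM replicate 3 (limma adjusted p = 0.0562, 0.129 and 0.0635).

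Itgav encodes the alpha chain of the vitronectin receptors, which bind matrix proteins that carry the RGD motif. Its level was 8.23 and 8.33 in old cells, 7.79 and 7.76 at D2PM, and 7.40, 7.62 and 7.68 at D4PM. The 3 groups did not overlap, with old highest and D4PM lowest. The post-mortem difference was -0.61 ± 0.12 (limma adjusted p = 0.00349), a 1.52-fold lower level. It was -0.50 ± 0.14 at D2PM (limma adjusted p = 0.0306) and -0.71 ± 0.13 at D4PM (limma adjusted p = 0.00233). From D2PM to D4PM the difference was -0.21, with a 95% interval from -0.50 to 0.07, and was not called (limma adjusted p = 0.665). The post-mortem call was lost without old replicate 2 (-0.56, limma adjusted p = 0.0605) and the D4PM call under none of the 7 arrays left out. The D2PM call was lost without either old array (adjusted p = 0.0676 and 0.159) or either D2PM array (adjusted p = 0.143 and 0.135).

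The other RGD-binding chains had differences below 0 that did not pass the threshold. Itga5, the alpha chain of the classical fibronectin receptor, read 7.01 and 7.43 in old cells, 6.70 and 6.83 at D2PM, and 7.03, 6.69 and 6.39 at D4PM. The first D4PM array lay between the old arrays. The post-mortem difference was -0.48 ± 0.17 (limma adjusted p = 0.0560), and without D4PM replicate 1 it was -0.57 and was called (limma adjusted p = 0.0221). Without old replicate 2 it was -0.28 (limma adjusted p = 0.481). Itga8 read 6.99 and 6.92 in old cells and between 6.40 and 6.82 on the 5 post-mortem arrays. Its arrays did not overlap, and its difference was -0.25 ± 0.14 (limma adjusted p = 0.193). Itga2b, the alpha chain of the platelet fibrinogen receptor, read between 5.31 and 5.68 on all arrays. Itgb5, a beta partner of the alpha V chain, read between 6.47 and 6.69 in old cells and between 6.23 and 6.63 after death, and its difference of -0.14 had a 95% interval from -0.44 to 0.17 (limma adjusted p = 0.476), with values from -0.25 to -0.030 when 1 array was left out.

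Itgb1 encodes the beta chain shared by most matrix-binding integrins, those with Itga1, Itga5, Itga6 and Itga7 among them. It read 9.92 and 10.04 in old cells, 9.72 and 9.80 at D2PM, and 9.61, 9.47 and 9.48 at D4PM. The 3 groups did not overlap, and the spread within each was at most 0.08 (SD). Post-mortem and old cells differed by -0.34 ± 0.11 (limma adjusted p = 0.0432), and D4PM differed from old by -0.45 ± 0.12 (limma adjusted p = 0.0175). D2PM differed from old by -0.22 ± 0.13, which was not called (limma adjusted p = 0.280). The post-mortem call was lost when any array but D4PM replicate 1 was left out (adjusted p between 0.0570 and 0.220), and the D4PM call without old replicate 2 (limma adjusted p = 0.120). The other beta chains tested, Itgb4, Itgb5 and Itgb8, were not called in any comparison.

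Itga1 encodes a collagen-binding chain. It read 5.52 and 5.22 in old cells, 5.98 and 5.80 at D2PM, and 6.43, 6.04 and 5.66 at D4PM. Each post-mortem array was above both old arrays, and D4PM arrays spread widely, with an SD of 0.38. Post-mortem cells differed by 0.60 ± 0.18, or 1.51-fold (limma adjusted p = 0.0296), and D4PM differed by 0.67 ± 0.20 (limma adjusted p = 0.0260). D2PM differed by 0.52 ± 0.22 (limma adjusted p = 0.116) and was not called. The post-mortem call was lost without old replicate 1 or 2, D2PM replicate 1 or 2, or D4PM replicate 2 (adjusted p between 0.0521 and 0.308), and the D4PM call without any array but D4PM replicate 3 (adjusted p between 0.0637 and 0.260). The other collagen-binding chain tested, Itga11, lay between 5.30 and 5.59 on all arrays and was not called.

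Itga1 and Itga6 are also made by endothelial cells, and the endothelial markers moved with them. On the first D4PM array, where those markers averaged 7.38, Itga1 was highest at 6.43, and on old replicate 2, where they averaged 5.82, both Itga1 and Itga6 were lowest. Itga6 was not highest on that D4PM array: it read 6.11 there and 6.51 on D4PM replicate 2, where the markers averaged 7.18. With that average as a covariate the post-mortem difference of Itga1 turned to -0.15 (limma adjusted p = 0.878) and that of Itga6 came to 0.20 (limma adjusted p = 0.855). The same covariate left Itgav at -0.36 (limma adjusted p = 0.555), Pcdh7 at -0.38 (limma adjusted p = 0.534), Itgb1 at -0.33 (limma adjusted p = 0.588), Ncam1 at -0.65 (limma adjusted p = 0.214) and Pcdh18 at -1.29 (limma adjusted p = 0.149), so that 0 of the 7 were called. Over all 9944 genes tested the covariate left 153 called, against 2887 without it. The average differed between old and post-mortem arrays without overlap. The part of other cells in these differences was not tested.

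**Figure D3:**
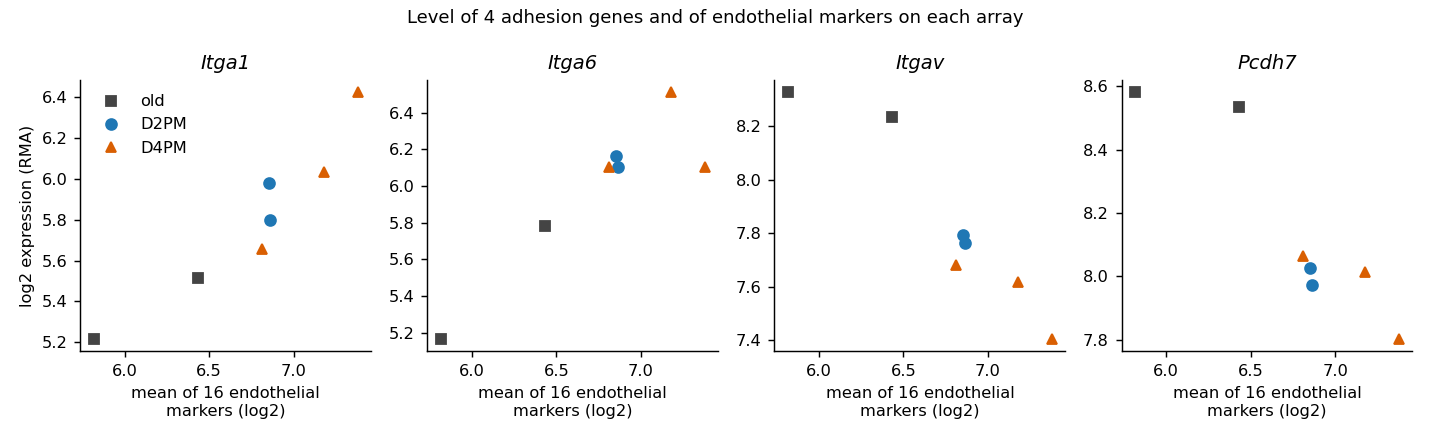
Log2 level (RMA) of Itga1, Itga6, Itgav and Pcdh7 against the mean log2 level of 16 endothelial markers. Each point is an array (old squares n = 2, D2PM circles n = 2, D4PM triangles n = 3). The old arrays, at 5.82 and 6.43 on the horizontal axis, lie left of every post-mortem array, low for Itga1 and Itga6 and high for Itgav and Pcdh7.

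The remaining integrin chains were few or dim. Itga9, a chain of a tenascin-binding receptor, averaged 4.75 in old cells, 4.83 at D2PM and 4.78 at D4PM and was below the level tested. Of 5 chains of leukocyte integrins, Itgad and Itgb2l were tested and 0 were called. Itgb2, the shared leukocyte beta chain, read between 4.17 and 4.55 and was below the level tested. Probe sets annotated to Itgam with another gene were not used.

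Cadherins did not differ between the groups past the threshold: 7 were in the table, 4 were tested and 0 were called in any comparison, with 0 at an unadjusted p under 0.05 in post-mortem against old cells. Cdh15 (M-cadherin), a cadherin of satellite cells and myoblasts, read 8.51 and 8.15 in old cells, 8.59 and 8.40 at D2PM, and 8.52, 8.36 and 8.41 at D4PM. The groups overlapped throughout, and the difference of 0.13 had a 95% interval from -0.16 to 0.42 (limma adjusted p = 0.480). It was 0.31 without old replicate 1 and -0.047 without old replicate 2. Cdh13, a cadherin anchored to the membrane without a cytoplasmic tail, read between 8.97 and 9.34 on all arrays, with a difference of -0.09 and an interval from -0.35 to 0.18. Cdh4 (R-cadherin) read 6.79 on old replicate 1 and between 5.96 and 6.33 on the other 6 arrays. Its difference was -0.28 ± 0.19 (limma adjusted p = 0.290), and it hung on those old arrays: without old replicate 1 it was 0.12 (limma adjusted p = 0.645), and without old replicate 2 it was -0.69 (limma adjusted p = 0.0446). Cdh2 (N-cadherin) read between 4.81 and 5.19 and was below the level tested.

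Ncam1 encodes a cell adhesion molecule of the immunoglobulin family made by muscle precursors and nerve. It read 9.69 and 9.46 in old cells, 9.26 and 9.21 at D2PM, and 9.22, 9.11 and 9.07 at D4PM. All 5 post-mortem arrays were below both old arrays, while D2PM and D4PM overlapped. Post-mortem cells differed by -0.39 ± 0.12 (limma adjusted p = 0.0288), D4PM differed by -0.44 ± 0.13 (limma adjusted p = 0.0245), and D2PM, at -0.33 ± 0.14, was not called (limma adjusted p = 0.118). The post-mortem call was lost without either old array (-0.27, limma adjusted p = 0.174, and -0.50, limma adjusted p = 0.0576) or either D2PM array (limma adjusted p = 0.0655 and 0.0768). The D4PM call was lost without old replicate 1, D4PM replicate 2 or D4PM replicate 3 (limma adjusted p = 0.131, 0.0506 and 0.0671).

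The largest difference among the members tested was that of a non-clustered protocadherin, Pcdh18. Of 10 such genes 5 were tested, and 2 were lower in post-mortem than in old cells and 3 at D4PM, where 14.7% and 15.5% of all genes tested were called lower. They are calcium-dependent adhesion molecules that act in cell sorting and migration, with most of what is known coming from nerve and embryo. Pcdh18 read 9.52 and 9.72 in old cells, 9.04 and 8.98 at D2PM, and 8.85, 7.96 and 8.06 at D4PM. The groups did not overlap, and the first D4PM array was nearer to D2PM than to the other D4PM arrays. The post-mortem difference was -0.97 ± 0.21, a 1.96-fold lower level (limma adjusted p = 0.00512). At D4PM it was -1.33 ± 0.22, or 2.51-fold (limma adjusted p = 0.00153), and at D2PM -0.61 ± 0.25 (limma adjusted p = 0.106). The D4PM difference was the only one among the members that reached 1 on the log2 scale and was called. D4PM and D2PM differed by -0.72, with an interval from -1.21 to -0.23 for this gene alone, and were not called over all genes (limma adjusted p = 0.480). Without old replicate 2 the post-mortem difference was -0.87 (limma adjusted p = 0.122) and the D4PM difference -1.23 (limma adjusted p = 0.0587).

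Pcdh7 read 8.54 and 8.58 in old cells, 8.03 and 7.97 at D2PM, and 7.80, 8.01 and 8.06 at D4PM. Old arrays stood above all others, and D2PM arrays fell inside the D4PM range. Post-mortem cells differed from old cells by -0.58 ± 0.12, or 1.49-fold (limma adjusted p = 0.00417), with -0.56 ± 0.14 at D2PM (limma adjusted p = 0.0183) and -0.60 ± 0.13 at D4PM (limma adjusted p = 0.00556). D4PM and D2PM differed by -0.04, with a 95% interval from -0.32 to 0.24. Without old replicate 2 the post-mortem difference was -0.56 (limma adjusted p = 0.0603) and the D4PM difference -0.58 (limma adjusted p = 0.0615), and the D2PM call was lost without either old or either D2PM array (adjusted p between 0.0572 and 0.110).

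Pcdh17 read 7.70 and 7.33 in old cells, 7.17 and 7.52 at D2PM, and 7.18, 6.89 and 6.40 at D4PM. Old and D2PM arrays overlapped, and 2 of the 3 D4PM arrays were below all of them. D4PM differed from old cells by -0.69 ± 0.21 (limma adjusted p = 0.0320), and the post-mortem difference of -0.43 ± 0.20 was not called (limma adjusted p = 0.124). The call was lost when any array but D4PM replicate 1 was left out (adjusted p between 0.0653 and 0.245). Pcdh9, read from 2 probe sets, lay between 5.76 and 6.26 on all arrays for the brighter of them, and was not called. Pcdh10 read 5.30 and 5.37 in old cells and between 5.02 and 5.22 after death, without overlap, and was not called.

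The clustered protocadherins in the table were 20 genes of the beta cluster, all on chromosome 18. Their coding sequences are much alike, so probes may read more than 1 member, and the values are uncertain in that respect. They were dim: 10 passed the filter on level, and the 20 lay between 3.68 and 6.48 over all arrays. In post-mortem against old cells 0 were called, with 1 at an unadjusted p under 0.05, and their median difference was -0.05 among the 10 tested. Pcdhb3 read 6.16 and 5.96 in old cells, 5.89 and 5.70 at D2PM, and 5.64, 5.58 and 5.76 at D4PM. Old arrays were above all others, and D4PM differed from them by -0.40 ± 0.13 (limma adjusted p = 0.0415). That call was lost when any of the 7 arrays was left out, with adjusted p between 0.0501 and 0.190. Pcdhb10 read 5.60 on both old arrays, 5.81 and 5.98 at D2PM, and 4.69, 5.41 and 5.60 at D4PM, so that D4PM lay below D2PM without overlap (unadjusted p = 0.0114 and adjusted p = 0.517 by limma). On at least 3 arrays exactly the same value stood for 6 of the 20 genes and for 19 of all 61, against 21.3% of all genes in the table.

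**Figure D4:**
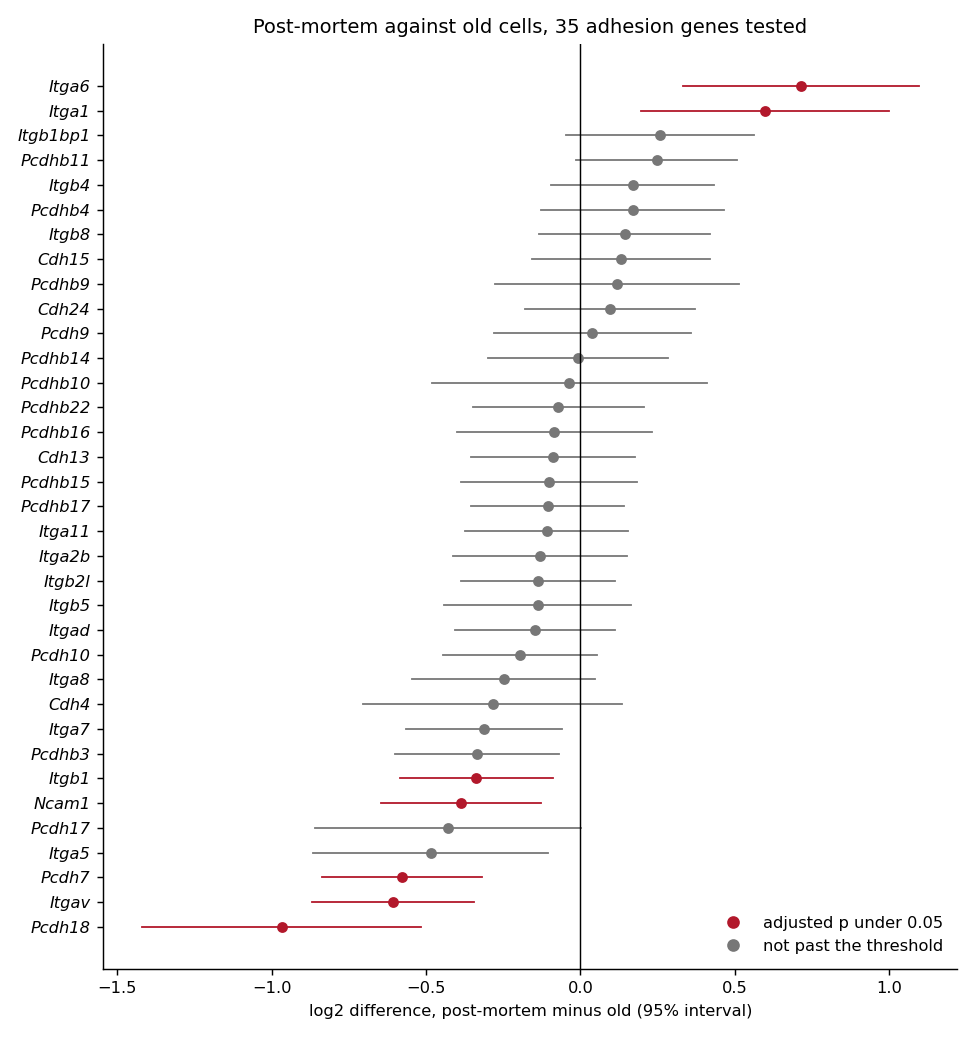
Difference in log2 level between post-mortem and old cells for the 35 adhesion genes tested, ordered by size. Points are limma estimates, bars their 95% intervals, and red marks an adjusted p under 0.05. Itga6 at 0.71 and Itga1 at 0.60 lead on the higher side, and Pcdh18 at -0.97, Itgav at -0.61 and Pcdh7 at -0.58 on the lower side.

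Promoters are shown for the called members whose listed start is also the outer end of the gene, so that the bases before it are not part of a longer transcript of the same gene. Of the 10 called members 6 had an entry in the RefSeq promoter table of build GRCm38.p6, and 3 remained under both rules. The 250 bases before the start are given in the direction of the gene, with capitals for the E-box CANNTG, the letters bound by the basic helix-loop-helix factors of the muscle lineage, which reads the same on both strands. Itga1, which was higher in post-mortem cells, is on the minus strand and the window is chr13:115101965-115102214. Itgb1, lower in post-mortem cells, is on the plus strand at chr8:128685404-128685653. Pcdh17, lower at D4PM, is on the plus strand at chr14:84443313-84443562.
Itga1: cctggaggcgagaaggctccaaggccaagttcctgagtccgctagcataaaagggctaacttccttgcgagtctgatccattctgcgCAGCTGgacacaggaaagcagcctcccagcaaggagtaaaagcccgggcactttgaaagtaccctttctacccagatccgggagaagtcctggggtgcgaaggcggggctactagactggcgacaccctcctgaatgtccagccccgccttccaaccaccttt
Itgb1: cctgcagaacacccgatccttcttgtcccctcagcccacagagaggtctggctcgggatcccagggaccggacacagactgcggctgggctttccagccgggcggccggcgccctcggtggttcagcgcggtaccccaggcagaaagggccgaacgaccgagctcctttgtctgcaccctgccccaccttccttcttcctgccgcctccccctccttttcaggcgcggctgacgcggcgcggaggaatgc
Pcdh17: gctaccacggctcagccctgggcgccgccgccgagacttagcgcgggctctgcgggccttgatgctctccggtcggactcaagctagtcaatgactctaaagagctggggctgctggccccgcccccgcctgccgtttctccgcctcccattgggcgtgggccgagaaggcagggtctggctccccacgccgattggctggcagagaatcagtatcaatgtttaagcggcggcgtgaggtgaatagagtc
The Itga1 window held 1 E-box, and those of Itgb1 and Pcdh17 held 0. Over all 32851 promoter windows 66.2% held at least 1, as did 15 of the 26 windows of the 25 adhesion genes with an entry. The Itga1 window had 10 CpG dinucleotides and a GC content of 57.6%. Those of Itgb1 and Pcdh17 had 21 each, with 68.0% and 64.8% GC, against a median of 6 and 52.4% over all windows and of 12 and 59.6% over the 26.

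Genes that work with these receptors were counted from lists of their partners. The calls of these partner genes were not checked with 1 array left out or with the endothelial covariate. Each count stands against the 14.4% of all genes tested that were called higher and the 14.7% called lower. Here rose and fell mean higher and lower than in old cells, which are not an earlier time point. Of 19 integrin adaptors and signalling genes tested, 1 was higher and 2 were lower in post-mortem than in old cells, not more than those shares would give. Tln2, a talin that binds the tail of integrin beta chains, fell by 0.64 (SE 0.15, limma adjusted p = 0.00788). Fermt2 (kindlin-2), which activates integrins with talin, had a mean of 9.84 (SD 0.04, old arrays, n = 2), of 9.23 (SD 0.08, D2PM, n = 2) and of 9.16 (SD 0.16, D4PM, n = 3), and fell by 0.65 (SE 0.12, limma adjusted p = 0.00274). Lims2 (PINCH-2), of the complex with integrin-linked kinase, rose by 0.69 (SE 0.11, limma adjusted p = 0.00125). At D4PM Vcl (vinculin), which links talin to actin, also fell, by 0.45 (SE 0.14, limma adjusted p = 0.0327). The list's median post-mortem difference was 0.09, against 0.00 over all genes tested.

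Of 10 cadherin partners tested, 1 was higher and 1 lower. Pkp4, a catenin relative that binds cadherin tails, fell by 0.62 (SE 0.15, limma adjusted p = 0.00895), and its old arrays spread with an SD of 0.37. Ptprm, an adhesive receptor phosphatase, rose by 0.59 (SE 0.18, limma adjusted p = 0.0279), with an SD of 0.45 in old cells and of 0 at D2PM. Of 6 other members of the cadherin superfamily tested, 0 were called, and of 9 membrane proteins that associate with integrins, 1 was higher and 1 lower. The tetraspanin Cd82 averaged 11.10 (SD 0.09, old arrays, n = 2) and 10.30 (SD 0.03, D4PM, n = 3) and fell by 0.66 in post-mortem cells (SE 0.11, limma adjusted p = 0.00179), while the tetraspanin Cd151, a partner of laminin-binding integrins, rose by 0.38 (SE 0.13, limma adjusted p = 0.0435). Cd151 was not called on either day alone (limma adjusted p = 0.110 at D2PM and 0.0562 at D4PM).

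Of 20 integrin ligands tested 3 were higher and 5 were lower, where 14.4% and 14.7% of all genes were called. Their median was -0.15. Ccn1, a matrix protein bound by alpha V and alpha 6 integrins, averaged 9.94 in old cells (SD 0.09, n = 2). It averaged 11.88 at D2PM (SD 0.16, n = 2) and 11.92 at D4PM (SD 0.19, n = 3), a post-mortem difference of 1.96 (limma adjusted p = 4.49e-06). Thbs1 (thrombospondin-1), a matrix protein with an RGD motif, rose by 1.30 (SE 0.29, limma adjusted p = 0.00687), with a D4PM SD of 0.77. Tnc (tenascin-C), a ligand of alpha 9 and alpha V integrins, fell by 2.13 (SE 0.25, limma adjusted p = 0.000189), and its old arrays spread with an SD of 0.70. Vcam1, a ligand of alpha 4 integrins and the satellite cell marker called lower above, fell by 0.73 (SE 0.13, limma adjusted p = 0.00201), and Icam1, a ligand of leukocyte integrins, by 0.68 (SE 0.11, limma adjusted p = 0.00132). Of 8 adhesion molecules of the immunoglobulin family tested, 3 were higher and 2 lower. Jam2, a junctional molecule of endothelial cells, rose by 0.98 (SE 0.19, limma adjusted p = 0.00313), as did the related F11r by 0.80 (SE 0.21, limma adjusted p = 0.0152). The old F11r arrays spread with an SD of 0.61. Cadm4 fell by 0.86 (SE 0.16, limma adjusted p = 0.00250) and Nectin3, an adherens junction molecule, by 0.49 (SE 0.11, limma adjusted p = 0.00778). Between D4PM and D2PM 0 genes of these 6 lists were called by limma, and 2, Cd82 and Jam2, had an unadjusted p under 0.05.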

How the data were processed

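RNA of sorted satellite cells was hybridised to 7 GeneChip Mouse Gene 1.0 ST arrays. The authors deposited log2 values made by RMA, which corrects background, normalises between arrays and summarises probes. By their methods, probes that seemed not expressed or did not vary had been taken out; the threshold is not given in the sources used here. The lowest SD of a probe set over the arrays was 0.0914, and shares of called genes therefore refer to varying genes. There is no detection call, differences near the floor can be compressed, and the number of arrays limits the precision.

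Of 18675 probe sets 14480 were annotated to 1 gene, 774 to several and 3421 to none listed. Of those with 1 gene, 14425 matched the RefSeq table of GRCm38.p6 and 0 symbols changed. Each gene was read from its brightest probe set, and genes at or above the 25th percentile of level were tested. Group means of the 3 groups were fitted together with limma 3.58.1 in R 4.3.3 (4 residual degrees of freedom), with Benjamini-Hochberg adjustment over 9944 genes. Always named were the adhesion genes described in satellite cells, every member past the threshold (up to 12 a direction), and up to 4 genes of each list of partners by moderated statistic; Thbs1, Itga8, Itga11, Cdh13, Pcdhb10 and other members given by their range were added after their values were seen. Members and lists were chosen with earlier results of these data known. Alternatives were median centring, other filters, averaged probe sets, a trended prior, a replicate block, an endothelial covariate, a plain pooled-variance t-test (the methods use limma's moderated statistic for arrays) and leaving out each array. The fit was run on simulated data for post-mortem against old cells, with 200 of 9944 genes changed. It recovered 31.9% of changes of 0.5 on the log2 scale and 84.0% of changes of 1. On average 6.3 unchanged genes were called in a run. In these data 2887 genes were called, far more than the 200 simulated, so these rates need not hold for them.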

Additional observations from a re-analysis of the deposited data

How the results depend on the processing

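The 7 members called in post-mortem against old cells became 0 with the endothelial covariate, 0 when a log2 change of at least 1 was required, 3 by a plain t-test after adjustment, and between 1 and 8 when 1 array was left out. The 1 was without old replicate 2 and was none of the 7. Without old replicate 1 there were 4, without D2PM replicate 1 there were 3 and without D2PM replicate 2 there were 4. The 3 called at D2PM became 0 with the covariate, 0 at a change of at least 1, 0 by the adjusted and 5 by the unadjusted t-test, and between 0 and 3 with 1 array left out (0 without old replicate 2, D2PM replicate 1 or D2PM replicate 2, and 1 without old replicate 1). The 10 called at D4PM became 1 with the covariate, 1 at a change of at least 1, 0 by the adjusted t-test, and between 2 and 9 with 1 array left out (2 without old replicate 2, 5 without old replicate 1, 6 without D4PM replicate 2 or 3). D4PM against D2PM stayed at 0 in every fit but the unadjusted t-test, which gave 3, and was 0 with each array left out and with the post-mortem arrays alone. Calls over all genes tested fell with them: from 2887 to 153 with the covariate, 413 at a change of at least 1, 1719 by the adjusted t-test and 858 without old replicate 2 in post-mortem against old cells, from 1931 to 188, 369, 15 and 346 at D2PM, and from 2770 to 113, 497, 14 and 911 at D4PM. By the unadjusted t-test 2028 of all genes were called at D2PM and 692 in D4PM against D2PM. The cause of these shifts was not tested.

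With the endothelial covariate the difference of Itga1 reversed to -0.15 in post-mortem and to -0.19 in D4PM against old cells, and that of Cdh15 to -0.19. With 1 array left out Cdh15 ranged from -0.047 to 0.31 and Cdh4 from -0.69 to 0.12. Median centring, the other filters, averaged probe sets and the trended prior gave 6 to 10, 2 to 3 and 7 to 11 calls in the comparisons of post-mortem, D2PM and D4PM with old cells. These counts are out of 35 members, but of 61 with no filter, 13 with the 50th percentile filter and 28 with the interquartile range filter. Calls over all genes were 2544 to 2930, 1799 to 1975 and 2431 to 2903 in the same order of comparisons. Deviations from the group means, for arrays with the same replicate number, had correlations between -0.08 and 0.05. With so few arrays a group, these values cannot show whether arrays were taken or processed together. With the replicate number as a block there were 5, 4, 7 and 0 calls, the last for D4PM against D2PM. Over all genes there were 2884, 2044, 2483 and 54. The post-mortem calls of Itgav and Pcdh7 held in 15 of 17 alternatives, of Pcdh18 in 14 of 17, of Itga6 in 12 of 16, of Ncam1 in 11 of 17, of Itga1 in 9 of 16 and of Itgb1 in 8 of 17. The required change of at least 1, under which 0 of the 7 were called, is not in these tallies. Other filters and averaged probe sets left the estimates unchanged (0.71 for Itga6). The replicate block gave the Itga6 estimate found without D4PM replicate 3 (0.75). The tallies are therefore not counts of independent checks.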
